A study of Homo sapiens with 20 samples.

Results

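The genes described here encode alpha and beta tubulins and were measured in human colorectal cancer cells: 6 beta tubulin genes (TUBB, TUBB2A, TUBB2B, TUBB3, TUBB4B and TUBB6) and 4 alpha tubulin genes (TUBA1A, TUBA1B, TUBA1C and TUBA4A). They were chosen by name, and the 10 genes are among 36346 gene names in the data. All 10 were found in each of the 20 libraries and passed the filter on low values in both cell lines. Rows that carried the same name were summed, and the 8 rows named TUBB were also looked at singly.

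The study asked what loss of POLR1D, a subunit shared by RNA polymerases I and III, does to colorectal cancer cells that carry extra copies of chromosome 13 DNA. HT29 and SW480 are established colorectal adenocarcinoma lines. Per the study's methods, HT29 has a focal amplification at 13q12.2 and SW480 a gain of the whole chromosome, so each karyotype is represented by 1 line. In each line, cells received a scrambled control siRNA (SCR) or 1 of 2 siRNAs against POLR1D (siPOLR1D2 or siPOLR1D3) by reverse transfection with a lipid reagent, and RNA was taken 72 h later. No untransfected cells were among the libraries, so every group had been exposed to the reagent and to an siRNA. HT29 had 4 SCR libraries, 2 siPOLR1D2 libraries and 2 siPOLR1D3 libraries. SW480 had 6 SCR libraries and 3 of each POLR1D siRNA. Libraries of both siRNAs were compared together with SCR and are called silenced below. The sources do not say whether replicates came from separate cultures, so the p values measure the spread between these libraries, which may be technical.

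Microtubules are hollow polymers of alpha and beta tubulin heterodimers. They form the mitotic spindle, carry intracellular transport and shape the cell, and they are the target of the taxanes and the vinca alkaloids. Humans have several genes, or isotypes, for each subunit, whose proteins differ mostly at the carboxy terminus. TUBB and TUBB4B are widely expressed beta isotypes, TUBB2A and TUBB2B are close relatives abundant in brain, TUBB3 is best known from neurons and from tumors that resist taxanes, and TUBB6 is a divergent isotype. TUBA1A is the main alpha isotype of young neurons, TUBA1B and TUBA1C are made in most dividing cells, and TUBA4A is prominent in platelets and mature neurons. Cells adjust tubulin mRNA to the pool of free heterodimers through autoregulation: TTC5 reads the first residues of a nascent tubulin chain and, with SCAPER and the CCR4-NOT complex, brings about decay of the mRNA being translated.

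The 10 genes are alike enough in sequence that the separation of their reads has to be considered with every value. The first 60 coding bases of the beta genes (GRCh38, GENCODE 29, 5′ to 3′) are shown because they hold the start that autoregulation reads and show how few bases tell the isotypes apart. Capitals mark bases that differ from TUBB.
TUBB: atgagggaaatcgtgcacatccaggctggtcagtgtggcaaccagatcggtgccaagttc
TUBB2A: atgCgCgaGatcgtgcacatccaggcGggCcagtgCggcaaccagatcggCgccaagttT
TUBB2B: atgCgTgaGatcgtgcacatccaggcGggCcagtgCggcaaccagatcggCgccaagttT
TUBB3: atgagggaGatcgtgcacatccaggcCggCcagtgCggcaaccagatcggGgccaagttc
TUBB4B: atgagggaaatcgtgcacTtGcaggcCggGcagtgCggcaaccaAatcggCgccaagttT
TUBB6: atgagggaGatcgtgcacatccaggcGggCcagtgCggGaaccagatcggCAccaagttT
Over this stretch TUBB3 differed from TUBB at 5 bases and each of the other 4 beta genes at 8. The first 12 bases, atgagggaaatc in TUBB and TUBB4B, opened 3 of 19565 coding genes. The start of TUBB3 and TUBB6, atgagggagatc, also opened 3.

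TUBB2A and TUBB2B are neighbors on chromosome 6 and the most alike pair, with 98.1% identity over their coding sequences. Their last 60 coding bases, where beta isotypes usually diverge, are shown because only the capitals differ between them.
TUBB2A: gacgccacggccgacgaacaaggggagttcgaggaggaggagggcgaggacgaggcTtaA
TUBB2B: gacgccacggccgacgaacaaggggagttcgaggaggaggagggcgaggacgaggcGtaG
TUBA1A and TUBA1B shared 97.2% of coding bases and TUBA1B and TUBA1C 96.8%. TUBB shared 80.9% to 84.7% with the other beta genes, and alpha genes shared 51.9% to 54.0% with beta genes. Of all words of 31 bases in a gene's transcripts, the share found in no other gene was 29.6% for TUBA1B, 30.0% for TUBB2A, 46.4% for TUBB2B, 50.3% for TUBB3, 54.3% for TUBA1A, 59.7% for TUBA1C, 67.1% for TUBB and 73.6% to 74.8% for TUBA4A, TUBB4B and TUBB6. TUBB2A shared 63.7% of its words with TUBB2B, TUBA1B shared 52.8% with the overlapping model AC011603.2, TUBB3 shared 49.0% with the readthrough model AC092143.1 and TUBB shared 21.2% with the pseudogene TUBBP1. The split of reads within these pairs is therefore uncertain, most of all for TUBB2A against TUBB2B.

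On GRCh38, TUBB lies at chr6:30720201-30725426 on the plus strand, inside the major histocompatibility complex. TUBB2A (chr6:3153669-3157526) and TUBB2B (chr6:3224261-3231730) lie near the end of the same arm on the minus strand. TUBB3 lies at chr16:89921392-89938761, TUBB4B at chr9:137241213-137243707 and TUBB6 at chr18:12307669-12344320, all on the plus strand. A cluster on chromosome 12 holds TUBA1B (chr12:49127782-49131397, minus strand), TUBA1A (chr12:49184796-49189324, minus strand) and TUBA1C (chr12:49188736-49274603, plus strand), and the last of these overlap each other. TUBA4A lies at chr2:219249711-219278170 on the minus strand and overlaps STK16 and TUBA4B. None of the 10 genes is on chromosome 13.

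POLR1D, the targeted gene, was lower in the silenced libraries of both lines without overlap. In SW480 its normalized read count was 2116 ± 281 (SD, n = 6, range 1829 to 2599) in SCR and 1036 ± 183 (n = 6, range 843 to 1336) after silencing, a log2 fold change of -1.04 (SE 0.13, limma adjusted p = 0.000991). In HT29 it was 5048 ± 700 (n = 4, range 4433 to 6036) against 3078 ± 452 (n = 4, range 2550 to 3492), a log2 fold change of -0.72 (SE 0.14, limma adjusted p = 0.355). The exact permutation test gave p = 0.0286 in HT29 and 0.00216 in SW480, in each case the smallest it can give.

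Some libraries stood apart from the others of their group. In HT29, SCR replicate 1 was alone at 1 end of the first principal component, which held 43.3% of the variance. The SW480 libraries fell on 2 sides of a first component that held 42.0%: SCR replicates 2 and 3 and siPOLR1D2 replicates 1 and 2 on side 1, and the other 8, with all 3 siPOLR1D3 libraries, on side 2. Values without HT29 SCR replicate 1 and within each side of SW480 are given below where they matter. Summed values ran from 17619830 to 21098188 per library in HT29 and from 19870433 to 22958216 in SW480. KRT8, KRT18 and EPCAM, markers of epithelium, were high in all 20 libraries, whereas the intestinal factor CDX1 was at 0 to 2.16 in all of them and CDX2 at 0 to 7.91 in HT29. CDX2 was at 45.5 to 224 in SW480. The study reports CDX2 as expressed in both lines, with successful knockdown by siRNA in each. Whether the capture and counting missed CDX2 in HT29 was not tested, nor whether the cells lacked CDX1 or it was missed. The summed value of 9 neuron markers was 72.9 to 179 in SW480 and 1.62 to 12.6 in HT29, and ELAVL3, ELAVL4, STMN2 and NEFL of that list were at 0 to 8.76 in every library. Of the others in SW480, SNAP25 was at 32.2 to 101, SYP at 9.94 to 59.5 and GAP43 at 9.31 to 38.6. RBFOX3 reached 7.16 there and DCX 14.8. In bulk RNA, fewer cells of a kind and less RNA per cell cannot be told apart.

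In SCR cells of both lines TUBA1B had the highest level of the alpha genes, and TUBB4B and TUBB had the highest mean levels of the beta genes, although in SW480 TUBB overlapped with TUBB3. Levels were set side by side per kb of the median length of each gene's protein coding transcripts. In SW480 TUBA1B stood at 109489 ± 30490 per kb (SD, n = 6), TUBA1C at 13286 ± 2718, TUBA1A at 3971 ± 859 and TUBA4A at 3040 ± 1318. The ranges of TUBA1B, TUBA1C and TUBA1A were separate, and those of TUBA1A and TUBA4A overlapped. In HT29 TUBA1B was at 61609 ± 26523 per kb (n = 4), TUBA1C at 10759 ± 1707, TUBA4A at 1385 ± 538 and TUBA1A at only 43.7 ± 10.7, and no neighbors in that order overlapped.

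Among the beta genes of SW480 SCR cells, TUBB4B led with 9413 ± 2556 per kb, and its range did not reach that of TUBB, at 4815 ± 1429. TUBB3 (4229 ± 474), TUBB6 (3094 ± 725), TUBB2B (2454 ± 974) and TUBB2A (2268 ± 585) followed, each overlapping its neighbor. HT29 expressed a narrower set: TUBB4B (7731 ± 2360) and TUBB (5288 ± 1729) overlapped, then came TUBB2A (783 ± 139), TUBB3 (378 ± 370), TUBB2B (81.7 ± 13.5) and TUBB6 (44.1 ± 16.2). TUBB and TUBB2A did not overlap there, nor did TUBB2B and TUBB6. As raw levels, TUBA1A was 3101 to 5012 in SW480 SCR libraries and 30.6 to 55.4 in HT29, TUBB6 1520 to 2832 and 13.4 to 35.9, TUBB2B 2479 to 7091 and 132 to 197, and TUBB3 2820 to 3731 and 58.7 to 680. The lines were normalized separately, so these ranges, which lie far apart, are given without a test.

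TUBB4B made up 35.8% of the summed beta values per kb in SW480 SCR cells and 53.8% in HT29, and TUBB 18.1% and 36.5%. TUBB is here the sum of 8 rows, of which 6 hold the same value, described further on. The sources do not say whether such rows divide the reads of a gene or repeat them, and with 1 row in place of the sum the level and share of TUBB would be lower and every other beta share higher. TUBB2A, TUBB2B, TUBB3 and TUBB6 together therefore filled a larger part of the SW480 pool, with 8.65%, 9.13%, 16.3% and 11.9% against 5.59%, 0.613%, 3.22% and 0.309% in HT29. These shares depended on the length used, since the median is shortened by incomplete transcript models of TUBB3, TUBB6, TUBA1B and TUBA4A. With the longest coding transcript, TUBB3 came to 7.70% and TUBB6 to 4.72% in SW480, below TUBB2B (11.3%) and TUBB2A (10.7%). With no division, which is close to a division by coding length (1335 to 1356 bases in these genes), TUBB came to 30.9% in SW480 and to 49.7% in HT29, above TUBB4B at 43.9%. TUBA1B held 84.0% of the alpha values in SW480 and 81.8% in HT29, or 71.9% and 67.3% with no division, and the order of the alpha genes was the same under all 3 lengths.

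**Figure D1:**
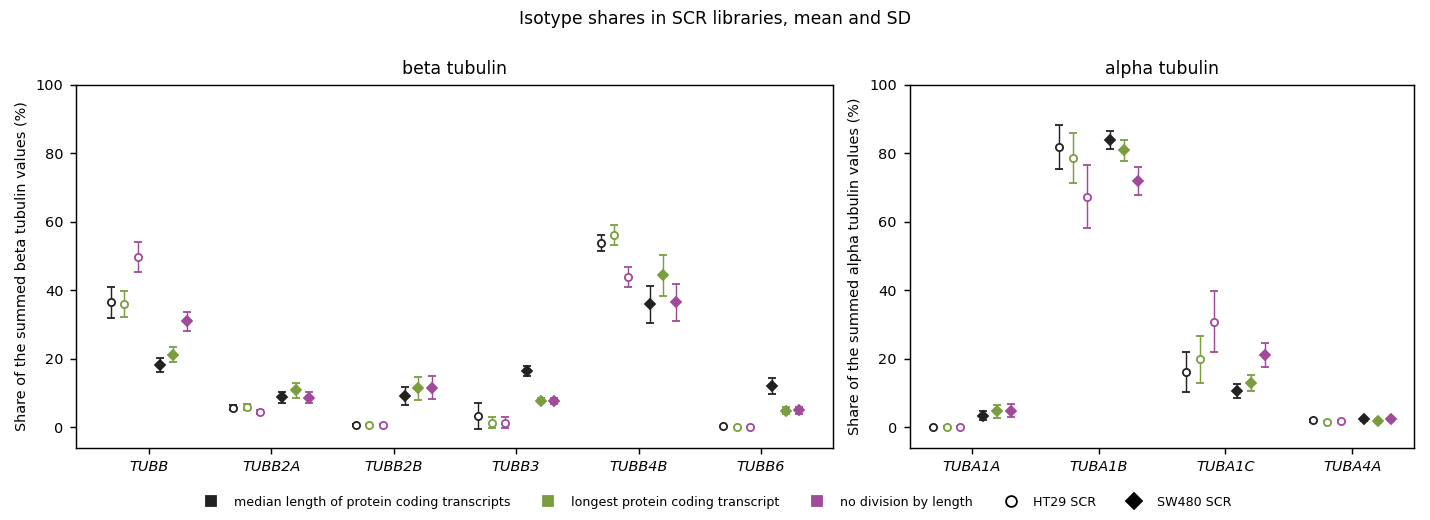
Share of each gene in the summed beta (left) or alpha (right) tubulin values of SCR libraries, in percent, as mean with SD, for HT29 (circles, n = 4) and SW480 (diamonds, n = 6). Colors give the transcript length used for division. The mean of TUBA1B is 67.3% or more of the alpha values in every case, and TUBB and TUBB4B exchange places in HT29 when values are not divided by length.

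In SW480, the beta genes TUBB, TUBB4B and TUBB3 had higher mean values after POLR1D silencing, and the alpha genes TUBA1B and TUBA1C had nearly equal means. Taken from the means of log2(value + 1), the folds were 1.46 (TUBB), 1.34 (TUBB4B) and 1.30 (TUBB3). None of the 10 genes passed the adjusted threshold of 0.05, which 2.44% of 15019 tested genes passed as higher and 4.29% as lower. At an unadjusted p under 0.05, these 3 genes were higher and none was lower, where 10.4% of all tested genes were higher and 12.8% lower. Of the 10 log2 fold changes, 7 were above 0, against 51.53% of all tested genes, and their median was 0.11 against 0.01 over all tested genes. In no member were all silenced libraries above or below all SCR libraries, as they were for 1.68% and 2.88% of tested genes.

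TUBB had normalized read counts with a lowest, median and highest value of 8753, 12415 and 20330 in the 6 SCR libraries. It had 16320, 14548 and 22227 in the siPOLR1D2 libraries and 21436, 18533 and 20029 in the siPOLR1D3 libraries. All 6 silenced values were above the SCR median, but SCR replicate 1, at 20330, was above 4 of them, so the groups overlapped. The log2 fold change was 0.54 (SE 0.17, 95% interval 0.17 to 0.92, limma adjusted p = 0.0788, exact permutation p = 0.0195). Without SCR replicate 1 it was 0.68 with a limma adjusted p of 0.0144, past the threshold. Of the 12 runs that each left out 1 library, it was the only 1 to pass. Over them the log2 fold change ran from 0.43 to 0.68, with limma adjusted p values up to 0.156. TUBB is also on a gene list that the study drew from these same libraries, so its direction is not independent evidence.

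TUBB4B ranged from 12194 to 23579 in SCR (median 14651), and was 21157, 15193 and 18317 with siPOLR1D2 and 24271, 20269 and 22886 with siPOLR1D3. As for TUBB, all 6 silenced values were above the SCR median and 1 SCR library, replicate 1, sat among them. The log2 fold change was 0.42 (SE 0.16, limma adjusted p = 0.132), and 0.55 without that library (limma adjusted p = 0.0188). No other run that left out 1 library passed, with log2 fold changes down to 0.36 and limma adjusted p values up to 0.239. TUBB3 was between 2820 and 3731 in SCR (median 3122), 3421, 3041 and 4570 with siPOLR1D2 and 5062, 4013 and 5063 with siPOLR1D3. Its 4 highest silenced libraries were above every SCR library, and the 2 that were not are those on side 1 of the first component. The log2 fold change of TUBB3 was 0.38 (SE 0.13, limma adjusted p = 0.106, exact permutation p = 0.0325). Its limma adjusted p was 0.0400 without siPOLR1D2 replicate 2, the only such run to pass. On leaving out other libraries its log2 fold change was as low as 0.32, with limma adjusted p values up to 0.208. Within side 2 the differences of TUBB and TUBB3 were 0.53 (limma adjusted p = 0.0838) and 0.48 (limma adjusted p = 0.0304), and within side 1, with 2 libraries a group, 0.57 (limma adjusted p = 0.213) and 0.19 (limma adjusted p = 0.560).

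The paralogs TUBB2A and TUBB2B had slightly lower mean values after silencing in SW480, with wide spread. TUBB2B was 7091, 2479, 2618, 5552, 6573 and 5432 in SCR replicates 1 to 6, 2101, 2374 and 4752 with siPOLR1D2 and 6518, 5138 and 5576 with siPOLR1D3. Its low values were those of side 1, with 2479 to 2618 in SCR and 2101 to 2374 after silencing, against 5432 to 7091 and 4752 to 6518 on side 2. Its log2 fold change was -0.17 (SE 0.34, limma adjusted p = 0.801). TUBB2A, from 2429 to 5017 in SCR and from 2132 to 6164 after silencing, differed by -0.16 (SE 0.26, limma adjusted p = 0.755), and TUBB6, from 1520 to 2832 and from 1308 to 3099, by -0.03 (SE 0.21, limma adjusted p = 0.953). With siPOLR1D3 alone against SCR, these 3 genes were higher by 0.33 (TUBB2A), 0.32 (TUBB2B) and 0.35 (TUBB6), the opposite sign. All siPOLR1D3 libraries were on side 2, but the SCR libraries in that comparison came from both sides. On side 2 the SCR means were 4110 (TUBB2A), 6162 (TUBB2B) and 2249 (TUBB6), with n = 4. With siPOLR1D3 the means were 4570, 5744 and 2565 (n = 3), so TUBB2B was lower within that side.

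Among the alpha genes of SW480, the 3 TUBA1 genes had log2 fold changes of 0.01 to 0.18 and TUBA4A had 0.36. TUBA1B, the most abundant of all 10, was 63942 ± 17806 in SCR (n = 6, range 45656 to 87897) and 63945 ± 5357 after silencing (n = 6, range 58771 to 74080), a log2 fold change of 0.04 (SE 0.16). TUBA1C was 18401 ± 3764 and 18334 ± 1966 (0.01, SE 0.14), and TUBA1A 3907 ± 845 and 4469 ± 1193 (0.18, SE 0.18). The adjusted p values of these 3 from limma were 0.602 to 0.968. For TUBA4A, at 2046 ± 887 and 2463 ± 341, all 6 silenced values were above the SCR median of 1652, but SCR replicates 1 and 2, at 3252 and 3083, exceeded them all (log2 fold change 0.36, SE 0.23, limma adjusted p = 0.368).

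**Figure D2:**
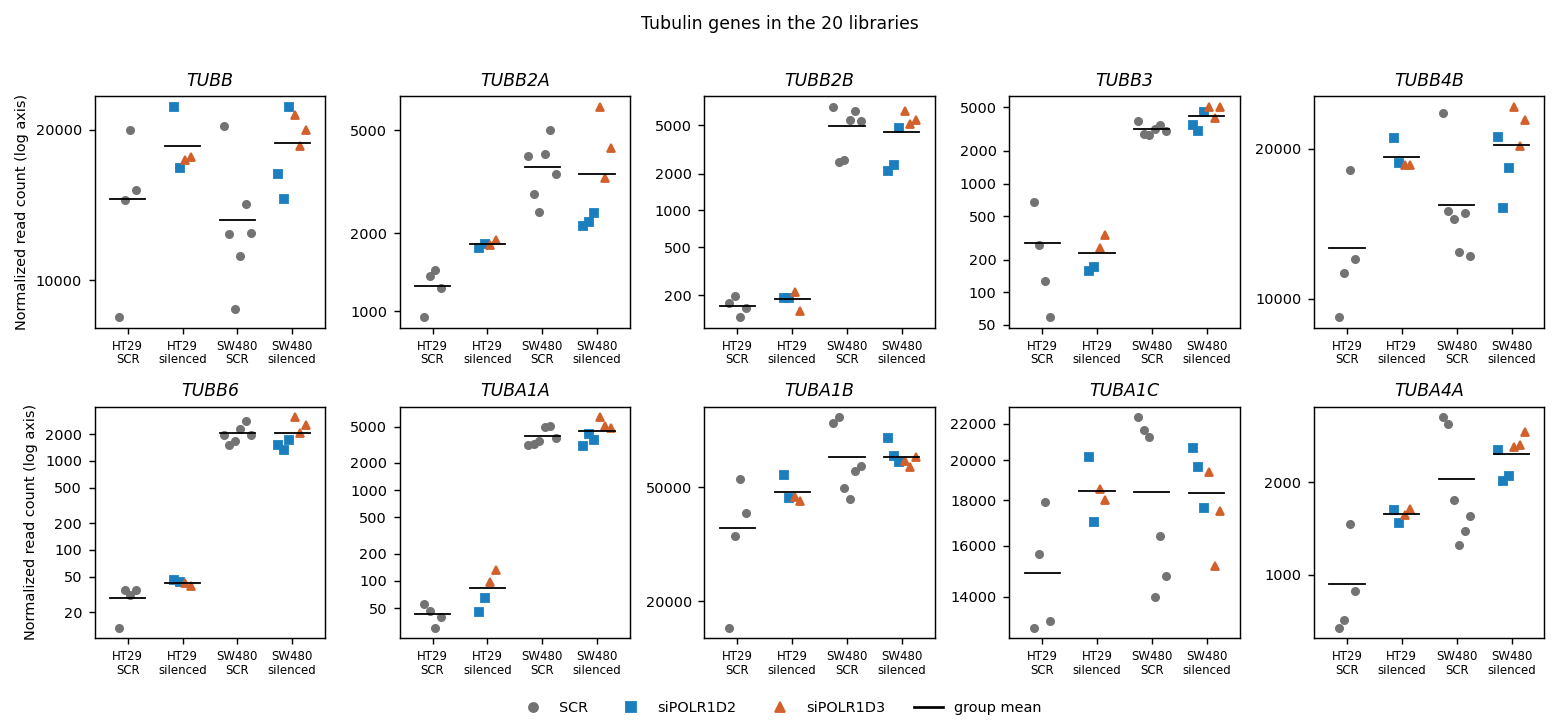
Normalized read count of each gene (log axis, a different range in each panel) in every library of HT29 and SW480, by siRNA, with group means as lines. In HT29, all silenced values of TUBB2A, TUBB4B, TUBB6 and TUBA4A are above the SCR values, while the groups overlap for every gene in SW480, and TUBB2B, TUBB6 and TUBA1A are far lower in HT29.

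In HT29 all 10 tubulin genes had a log2 fold change above 0 after POLR1D silencing, although the arithmetic mean of TUBB3 was lower (284 against 229), with a median of 0.55 against 0.00 over all tested genes, of which 50.02% were above 0. No gene of the whole table passed the adjusted threshold in HT29 with limma (0% of 13274 tested genes higher and 0% lower), and 1422 had an unadjusted p under 0.05. Of the members, 5 were higher at an unadjusted p under 0.05 (TUBB2A, TUBB4B, TUBA1A, TUBA1C and TUBA4A) and none was lower, where 4.66% of all tested genes were higher and 6.05% lower. In 4 of the 10 (TUBB2A, TUBB4B, TUBB6 and TUBA4A) all silenced libraries were above all SCR libraries, as they were for 2.72% of all tested genes, with 4.17% below. Members share reads and libraries and are not independent of each other.

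TUBB2A was 946, 1371, 1448 and 1232 in the HT29 SCR libraries, 1748 and 1822 with siPOLR1D2, and 1798 and 1882 with siPOLR1D3. The 4 silenced values were within a narrow band above all SCR values, a log2 fold change of 0.55 (SE 0.14, limma adjusted p = 0.355, exact permutation p = 0.0286). TUBB4B was 9168, 11275, 18160 and 12021 in SCR, 21066 and 18723 with siPOLR1D2 and 18560 and 18586 with siPOLR1D3. SCR replicate 3, at 18160, came close to the lowest silenced library (log2 fold change 0.65, SE 0.19, limma adjusted p = 0.391). TUBA4A was 673, 712, 1458 and 887 in SCR against 1617, 1469, 1561 and 1632 after silencing, again with SCR replicate 3 close to the silenced libraries (log2 fold change 0.82, SE 0.22, limma adjusted p = 0.355).

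TUBB itself was 8434, 14492, 20017 and 15152 in HT29 SCR libraries, 22189 and 16802 with siPOLR1D2, and 17417 and 17686 with siPOLR1D3. SCR replicate 3 was above 3 of the 4 silenced libraries, and the log2 fold change was 0.41 (SE 0.23, limma adjusted p = 0.532, exact permutation p = 0.171). TUBA1B was 16177, 33790, 53340 and 40612 in SCR and 44871 to 55050 after silencing (0.54, SE 0.31, limma adjusted p = 0.535). TUBA1C was 12915, 15646, 17920 and 13124 against 17030 to 20182 (0.32, SE 0.13, limma adjusted p = 0.445). In all 3 genes SCR replicate 3 was the highest and SCR replicate 1 the lowest of the SCR libraries.

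TUBA1A, TUBB6, TUBB2B and TUBB3 were the isotypes with the lowest values in HT29. TUBA1A was 55.4, 46.5, 30.6 and 39.7 in SCR, 45.1 and 64.3 with siPOLR1D2 and 96.3 and 131 with siPOLR1D3, the largest log2 fold change of the 10 genes in HT29 at 0.87 (SE 0.34, limma adjusted p = 0.436). TUBB6 was 13.4, 35.9, 30.8 and 35.7 against 39.8 to 45.9 (0.65, SE 0.33, limma adjusted p = 0.501). TUBB2B, at 132 to 197 and 150 to 215, differed by 0.18 (SE 0.18). TUBB3 was 284 ± 278 in SCR (58.7 to 680) and 229 ± 83.3 after silencing (156 to 337), a lower mean but a log2 fold change of 0.18 (SE 0.64), the largest SE of the 10 genes, and its sign turned without SCR replicate 3, SCR replicate 4 or siPOLR1D3 replicate 2.

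HT29 SCR replicate 1, which stood apart over all genes, was the lowest library for TUBB, TUBB2A, TUBB4B, TUBB6, TUBA1B, TUBA1C and TUBA4A. Without it all 10 log2 fold changes were still above 0, from 0.17 (TUBB) to 1.00 (TUBA1A), with limma adjusted p values of 0.299 to 0.736. TUBA1B was the member most reduced by leaving it out, to 0.19, followed by TUBB6 at 0.33 and TUBB at 0.17. TUBB2A was at 0.43, TUBB4B at 0.51 and TUBA4A at 0.69. What set this library apart was not tested.

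**Figure D3:**
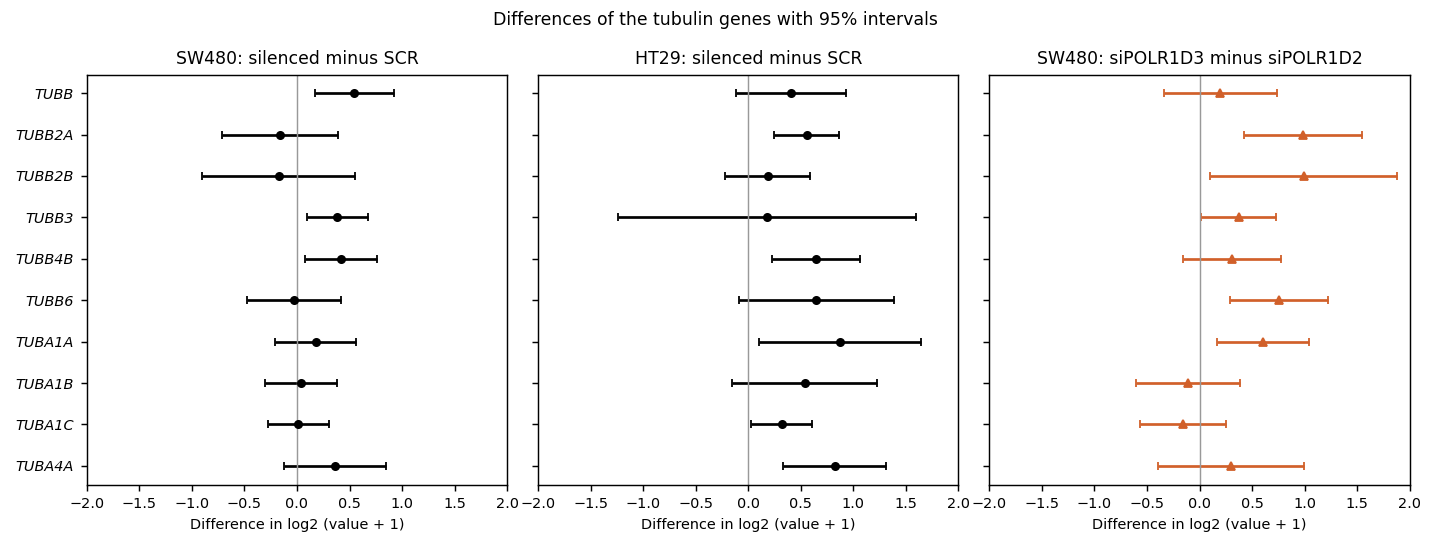
Differences of the 10 genes on the log2(value + 1) scale with 95% intervals, for silenced minus SCR in SW480 (left, 6 and 6 libraries) and HT29 (middle, 4 and 4), and for siPOLR1D3 minus siPOLR1D2 in SW480 (right, 3 and 3). The intervals of TUBB, TUBB3 and TUBB4B exclude 0 in SW480 and those of TUBB2A, TUBB4B, TUBA1A, TUBA1C and TUBA4A in HT29, without adjustment for the number of genes tested, and TUBB2A, TUBB2B, TUBB3, TUBB6 and TUBA1A were higher with siPOLR1D3 than with siPOLR1D2.

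Several tubulin genes had higher mean levels with siPOLR1D3 than with siPOLR1D2 in SW480, none past the adjusted threshold. Mean values with siPOLR1D2 and siPOLR1D3 were 2242 ± 135 and 4570 ± 1466 for TUBB2A (n = 3 each), 1506 ± 194 and 2565 ± 515 for TUBB6, and 3544 ± 536 and 5394 ± 841 for TUBA1A. For TUBB2A and TUBB6 the SCR mean, 3618 and 2030, was between the siRNAs. On the log2 scale siPOLR1D3 exceeded siPOLR1D2 by 0.98 for TUBB2A (SE 0.26, limma adjusted p = 0.0575), 0.76 for TUBB6 (SE 0.22, limma adjusted p = 0.0737), 0.61 for TUBA1A (SE 0.20, limma adjusted p = 0.110) and 0.99 for TUBB2B (SE 0.41, limma adjusted p = 0.186). None of the 10 passed, where 1.62% of tested genes passed as higher with siPOLR1D3 and 1.69% as lower, and of the alternatives run TUBB2A passed in 1, without SCR replicate 3 (limma adjusted p = 0.0369). TUBB (0.20, 95% interval -0.34 to 0.73), TUBA1B (-0.11, -0.61 to 0.38) and TUBA1C (-0.16, -0.57 to 0.26) differed less between the siRNAs. All 3 siPOLR1D3 libraries were on side 2 of the first component and 2 of 3 siPOLR1D2 libraries on side 1, so the siRNA and the side are largely tied.

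In HT29, with 2 libraries for each siRNA, 0% of genes differed between the siRNAs in either direction with limma. TUBA1A showed the largest difference of the members, with 114 ± 24.6 for siPOLR1D3 against 54.7 ± 13.6 for siPOLR1D2 (log2 difference 1.05, SE 0.37). It was higher with siPOLR1D3 in SW480 too, by 0.61. TUBB2A, in contrast, differed by 0.04 between the siRNAs in HT29 (95% interval -0.43 to 0.52).

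None of the 10 changes differed between the lines at an adjusted p under 0.05, a call made for 0.0247% of 16203 tested genes as higher in SW480 and 0.0123% as lower. The change in SW480 minus the change in HT29 was -0.72 for TUBB2A (SE 0.35, limma adjusted p = 0.611), -0.69 for TUBA1A (SE 0.36) and -0.68 for TUBB6 (SE 0.36). For TUBB it was 0.14 with a 95% interval of -0.49 to 0.76, so that differences within that range, in either direction, were not excluded.

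TUBB was deposited as 8 rows without identifiers, which are not alike. In every library 6 of them held the same value, and rows 1 and 4 held values of their own. The primary assembly of GENCODE 29 has 1 gene named TUBB, and the 12 genes around it in the major histocompatibility complex came as 6 to 8 rows each as well. In SW480 row 1 carried the larger part of the difference between the group means of the sum. It was 2074, 780, 128, 2125, 2013 and 1766 in SCR replicates 1 to 6, 1789, 4908 and 6880 with siPOLR1D2 and 3767, 5806 and 6357 with siPOLR1D3. All silenced libraries but siPOLR1D2 replicate 1 were above every SCR library.

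The log2 fold change of TUBB row 1 in SW480 was 2.06 (SE 0.62, limma adjusted p = 0.0615, exact permutation p = 0.00866), and its share of the summed TUBB value was 10.9% ± 6.29 in SCR and 26.0% ± 9.41 after silencing. Each of the 6 identical rows was 1865 ± 541 in SCR and 2228 ± 407 after silencing (0.28, SE 0.18, limma adjusted p = 0.376). Row 4 was 552 ± 315 and 562 ± 402 (-0.07). In HT29 the rows behaved otherwise: row 1 was 797 ± 408 and 834 ± 488 (0.04, SE 0.48), and row 4 was 488 ± 218 and 1128 ± 342 (1.24, SE 0.30, limma adjusted p = 0.371, exact permutation p = 0.0571). The highest log2 ratio of silenced to SCR means among the rows was that of row 1 in SW480 (1.73) and that of row 4 in HT29 (1.21), so it came from a different row in each line. The rows of the neighboring genes also diverged from each other in places. The spread between the lowest and the highest log2 ratio among a gene's rows was 1.71 for TUBB in SW480 and 1.14 in HT29, against 1.07 for MDC1 in SW480, 1.43 for PPP1R18 in HT29 and 0 for NRM, whose rows were all identical. Which transcript models the rows stand for cannot be read from the values.

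**Figure D4:**
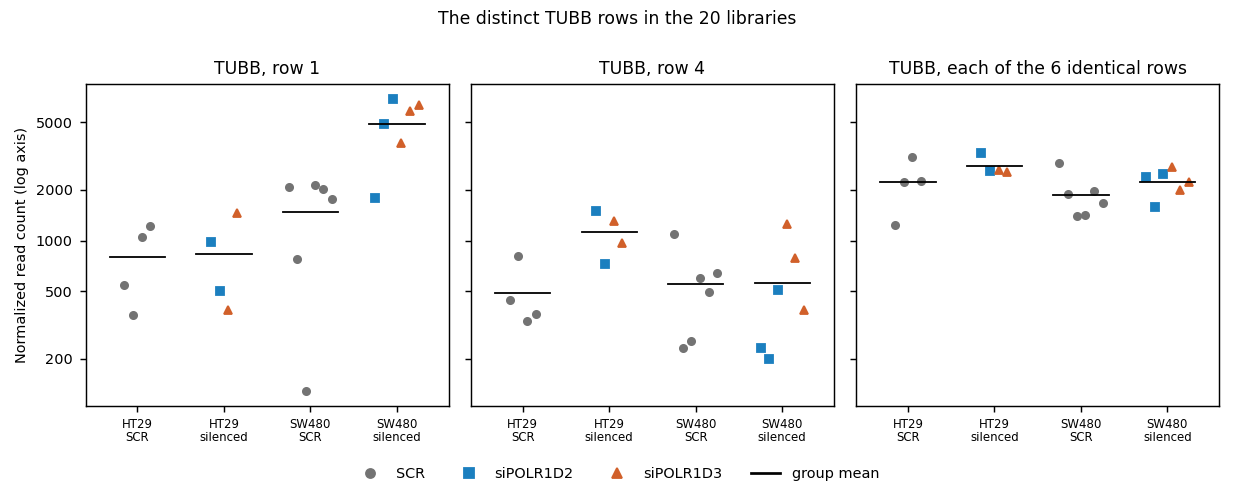
Normalized read counts (log axis) of the distinct TUBB rows in every library, with group means as lines: row 1, row 4, and 1 of the 6 identical rows. Row 1 is higher in 5 of 6 silenced SW480 libraries than in any SCR library, whereas row 4 has the larger difference between the group means in HT29.

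The shares of the isotypes in the beta tubulin pool moved by a few percentage points with silencing, for some genes by more than the SD of the SCR libraries. In SW480 the share of TUBB was 18.1% ± 2.13 in SCR (SD, n = 6) and 21.5% ± 2.37 after silencing, with TUBB4B at 35.8% ± 5.45 and 38.9% ± 3.90, TUBB2A at 8.65% and 6.39% and TUBB2B at 9.13% and 6.55%. In HT29 the share of TUBB4B was 53.8% ± 2.44 in SCR (50.9% to 56.7%) and 58.5% ± 1.07 after silencing (57.4% to 59.9%), without overlap, and that of TUBB 36.5% and 33.5%. With no division by length the TUBB4B ranges overlapped, at 40.8% to 47.2% and 46.4% to 49.6%. The summed beta values per kb were 26273 ± 5430 and 32297 ± 6403 in SW480, and 14306 ± 3863 and 20093 ± 1561 in HT29. The mean share of TUBB3 in HT29 was 3.22% ± 3.83 in SCR (0.564% to 8.80%) and 1.54% ± 0.606 after silencing (0.926% to 2.29%). Its medians were 1.76% and 1.47%. The ratio of summed alpha to summed beta values per kb was 5.03 ± 1.38 and 4.21 ± 1.02 in SW480 and 5.04 ± 0.922 and 4.87 ± 0.104 in HT29, where the differences of the ratio were within 1 SD of the SCR libraries. The size of this ratio rests on the length used, since TUBA1B was divided by 584 bases and its longest transcript has 1627. With no division, SW480 SCR libraries summed to 65800 to 115860 for alpha and 32729 to 60631 for beta. HT29 SCR libraries summed to 29820 to 72748 and 19415 to 39914. These shares and ratios were not tested.

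Other tubulins were then taken from a list of 13 genes, of which 9 were tested in SW480, with 1 called higher, 1 called lower and a median log2 fold change of 0.06. Over all tested genes 2.44% were called higher and 4.29% lower. TUBE1, which encodes epsilon tubulin of the centrioles, fell in SW480 from 494 ± 157 (range 273 to 732) to 194 ± 23.0 (range 172 to 226), with no overlap between the groups (log2 fold change -1.29, SE 0.20, limma adjusted p = 0.00377). It was the largest difference among the tubulin genes tested in SW480 and was past the threshold without any 1 of the 12 libraries, with siPOLR1D2 alone (limma adjusted p = 0.0299) and with siPOLR1D3 alone (limma adjusted p = 0.0230), but not within side 1 (limma adjusted p = 0.0906). In HT29 TUBE1 was 259 ± 158 (116 to 464) and 100 ± 16.6 (86.3 to 120), a difference of -1.16 (SE 0.39, limma adjusted p = 0.409). TUBB1, the beta isotype of platelets, rose in SW480 from 101 ± 14.6 to 179 ± 40.2 (0.81, SE 0.18, limma adjusted p = 0.0188). Its call held without any 1 library but not with siPOLR1D2 alone (0.75, limma adjusted p = 0.120) or within side 1 (0.65), and it differed by 0.39 in HT29 (limma adjusted p = 0.454). TUBA8 had the largest difference that did not pass in SW480, 0.71 (limma adjusted p = 0.250). None of the 7 tested in HT29 passed, and their median was 0.02.

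Of 14 genes of prefoldin and the chaperonin CCT, which fold newly made tubulin, 1 was called lower in SW480 and none higher. Their median of -0.0029 lay between genes that went both ways, since at an unadjusted p under 0.05 there were 2 higher and 2 lower. The called gene was CCT4, a CCT subunit, which fell from 11368 ± 1898 to 8307 ± 839 (-0.44, SE 0.11, limma adjusted p = 0.0359), a call lost when any 1 of 8 libraries was left out. The call of CCT4 was also lost with each siRNA alone and within each side of the first component. PFDN2 of prefoldin differed by -0.57 (limma adjusted p = 0.0666). Of the 7 genes of the cofactors that join alpha to beta tubulin, TBCE, which acts on alpha tubulin, was lower in SW480 (3653 ± 244 and 2949 ± 146, -0.31, SE 0.08, limma adjusted p = 0.0286), a call lost without any 1 of 6 libraries. That call, too, was lost with each siRNA alone and within each side. In HT29 TBCE was 1929 ± 267 and 1487 ± 85.7, again with no overlap (-0.37, SE 0.12, limma adjusted p = 0.408), and no gene of these lists passed there. TBCB had the largest difference that did not pass in SW480, 0.31 (limma adjusted p = 0.215).

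None of the 3 autoregulation genes passed in either line. TTC5, which reads nascent tubulin, differed by -0.15 in SW480 (limma adjusted p = 0.567) and by -0.11 in HT29 (limma adjusted p = 0.814). Of 14 genes that modify tubulin, 2 were called lower in SW480 and none higher, where 4.29% of all tested genes were lower and 2.44% higher. TTLL4, a glutamylase, went from 2196 ± 271 to 1700 ± 110 (-0.36, SE 0.09, limma adjusted p = 0.0354), and TTLL1, the catalytic subunit of another glutamylase, from 155 ± 83.6 to 69.7 ± 19.1 (-1.06, SE 0.29, limma adjusted p = 0.0431). The call of TTLL4 was lost without any 1 of 8 libraries and that of TTLL1 without any 1 of 10. Both calls were also lost with each siRNA alone and within each side of the first component. VASH1, a detyrosinating enzyme, had the largest difference that did not pass in SW480 at 0.75 (limma adjusted p = 0.541). In HT29 the 12 tested modifiers had a median of -0.33 and none passed, with TTLL7 at -1.07 (limma adjusted p = 0.499).

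Of the 24 genes for microtubule dynamics and binding proteins, 23 were tested in SW480, 2 were called lower and none higher, with a median of -0.07. The shares over all tested genes were 4.29% and 2.44%, so 2 of 23 is near the background. TPX2, a spindle assembly factor, fell from 7278 ± 792 to 4834 ± 906 without overlap (-0.60, SE 0.12, limma adjusted p = 0.0137). Its call held without any 1 library and with siPOLR1D3 alone (-0.82), but not with siPOLR1D2 alone (-0.39, limma adjusted p = 0.104) or within side 1 (-0.35), and in HT29 TPX2 differed by 0.04 (limma adjusted p = 0.955). KIF2C, a microtubule depolymerase, was lower (2740 ± 383 and 2097 ± 231, -0.38, SE 0.11, limma adjusted p = 0.0495), a call lost on leaving out any of the 12 libraries. MAP1A, a microtubule binding protein, differed by 0.90 (limma adjusted p = 0.0738). In HT29 MAP1B had the largest difference, from 30.4 ± 21.1 to 7.04 ± 4.83 (-1.81, limma adjusted p = 0.454), and none of 22 passed. None of the 9 genes of the gamma-tubulin ring, which nucleates microtubules, passed in either line. NEDD1 came nearest in size in SW480 (-0.47, limma adjusted p = 0.0573) and MZT2B in HT29 (-0.28, limma adjusted p = 0.538).

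Of the 12 genes around TUBB on chromosome 6, 1 was called in SW480, in the direction opposite to that of TUBB, where 4.29% of all tested genes were called lower. MRPS18B, a protein of the mitochondrial ribosome, fell from 1162 ± 134 to 793 ± 83.9 without overlap (-0.55, SE 0.11, limma adjusted p = 0.0104). Its call held without any 1 library but not with siPOLR1D2 alone (-0.43, limma adjusted p = 0.0821) or within side 1 (-0.47). IER3 had the largest difference that did not pass in SW480, -0.67 (limma adjusted p = 0.304), and NRM in HT29, 0.63 (limma adjusted p = 0.689). Colon epithelial markers moved with silencing in SW480 as well: KRT19 rose from 6940 ± 1652 to 11268 ± 2501 (0.70, limma adjusted p = 0.0226) and KRT20 from 5.25 ± 3.77 to 41.0 ± 28.7 (2.74, limma adjusted p = 0.00698). These were 2 of 8 tested epithelial markers, where 2.44% of all tested genes were called higher. The summed value of the epithelial markers was 139163 to 270010 in SCR and 184356 to 231690 after silencing. In HT29 none of 7 passed, with sums of 221579 to 246505 and 217867 to 260089. Of the fibroblast, neuron and blood markers, 9 were tested in SW480 and 4 in HT29, and none passed.

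**Figure D5:**
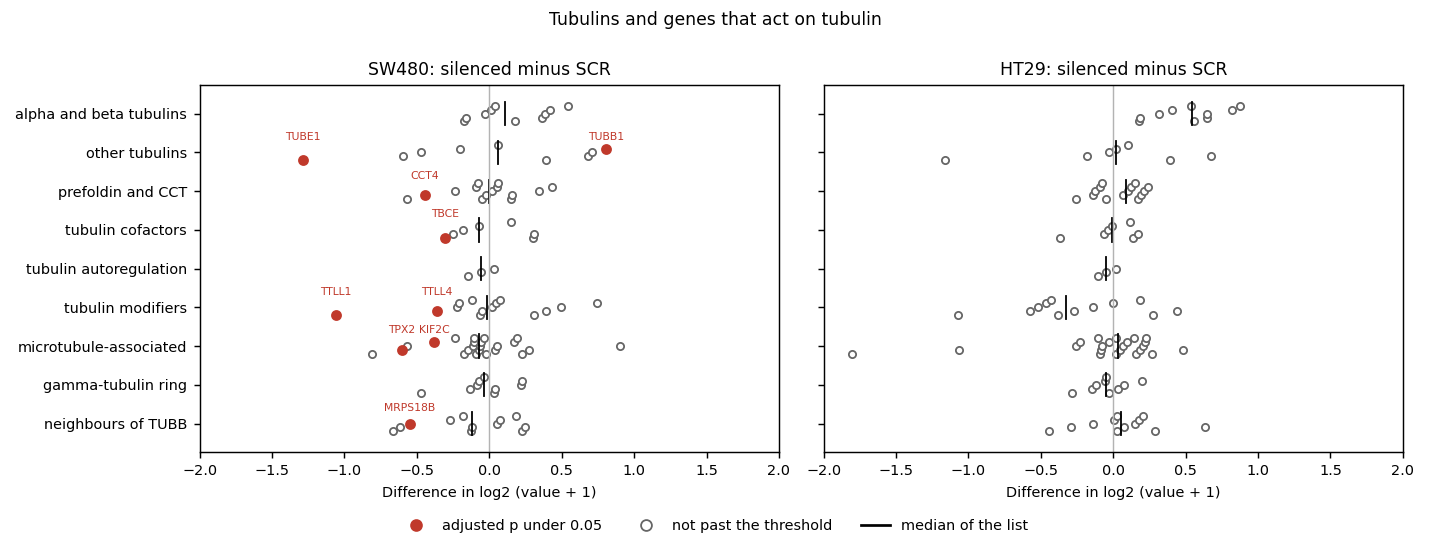
Differences in log2(value + 1), silenced minus SCR, for the alpha and beta tubulin genes and 8 lists of related genes in SW480 (left) and HT29 (right). Filled red points are genes with an adjusted p under 0.05, and vertical bars are list medians. The tubulin median is 0.11 in SW480 and 0.55 in HT29, and TUBE1 has the lowest difference of the genes drawn in SW480.

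The genes whose values followed TUBB and TUBA1B most closely were ranked by Pearson's r of log2 values over the libraries of each line, as a description, since these libraries also share their siRNA groups and the sides described above. Over the 12 SW480 libraries TUBB was closest to POMGNT2 (r = 0.98), DAG1 (0.97) and HIST1H2BI (0.97), and of the tubulins to TUBB3 (0.87) and TUBB4B (0.83). TUBA1B was closest to KIF22 (0.97), E2F4 (0.94) and DDX54 (0.94), and of the tubulins to TUBA4A (0.80), and its r with TUBB was 0.40. Over the 8 HT29 libraries, with SCR replicate 1 among them, TUBB was closest to HMGA2, PUS7 and DDX11 (0.99 each) and TUBA1B to H2AFX (1.00), CDCA8 (1.00) and PRIM2 (0.99). There the r of TUBB with TUBA1B was 0.99, whereas TUBB3 went the other way from TUBA1B (-0.66).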

How the data were processed

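RNA of 20 libraries (TruSeq RNA Exome capture of coding transcripts, 75 bp paired-end reads) was sequenced. Per the labels and the study's methods, the authors checked reads with FastQC 0.11.5, estimated transcript abundance with kallisto 0.44.0 (hg38) and deposited, for each cell line, read counts per gene normalized with DESeq2 1.24.0. These signal values are not whole, so the depth behind single genes is unknown and no counting interval was given. Strand use and the annotation release are not given in the sources used here. The columns hold 40117 rows, and 1817 names have more than 1 row.

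Rows of 1 name were summed. Values of at least 10 in as many libraries as the smaller group were required. limma 3.58.1 (R 4.3.3, mean-variance trend) was run on log2(value + 1) within each line, with Benjamini-Hochberg adjustment over all tested genes and a threshold of 0.05, so fold changes of low genes are understated. Exact permutation tests were 2-sided. One fit over both lines tested their difference. Scripts were tested on simulated data. Lengths, positions and sequences came from GENCODE 29 (GRCh38). Alpha tubulin sequences are not reported here. The members and lists were chosen with earlier results of these data known. All 10 members were named. From each list of related genes, those past the threshold (up to 4 a line) and the 1 with the largest difference not past it were eligible to be named, with the 3 closest genes to TUBB and to TUBA1B. The alternatives were other pseudocounts, filters, rescaling, no trend, rows as deposited, single siRNAs, both lines in 1 fit, a replicate block, the side in SW480 and leaving out each library.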

Additional observations from a re-analysis of the deposited data

Results flagged for a closer look

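Single libraries far from the rest of their group were sought in the 52 groups of 4 or 6 libraries formed by the 10 genes and the distinct TUBB rows in each line, and 6 were found (Dixon's criterion at 95%). Chance alone gives about 1 in 20. In HT29, siPOLR1D2 replicate 1 was the highest silenced library for TUBB (22189, with the others at 16802 to 17686), for TUBB4B (21066, with the others at 18560 to 18723), for TUBA1B (55050, with the others at 44871 to 46224) and for the identical TUBB rows (3285, with the others at 2543 to 2619). In SW480, siPOLR1D2 replicate 1 was the highest silenced library for TUBA1B (74080, with the others at 58771 to 64309). SCR replicate 1 of SW480 was the highest control for TUBB4B (23579, with the others at 12194 to 14974), and it was also the control whose removal brought TUBB and TUBB4B past the threshold.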

How the results depend on the processing

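With both lines counted, the log2 fold changes of the 10 genes kept their direction and their side of the threshold in 401 recalculations, changed sign in 36 and passed the threshold in 10. In SW480 the count of genes called, 1011, was 666 with no filter, 582 with siPOLR1D2 alone, 2487 with the side of the first component as a covariate, 1 within side 1, and 534 to 1283 on leaving out 1 library. The count of tubulin genes called, 0, was 1 with siPOLR1D3 alone (TUBB3), 2 with the side as a covariate (TUBB and TUBB3; the side was read from these same values and is balanced between the groups, so it cannot move the differences), 1 within side 2 (TUBB3), and 0 to 2 on leaving out 1 library (TUBB and TUBB4B without SCR replicate 1, TUBB3 without siPOLR1D2 replicate 2). In HT29 the count of genes called, 0, was 4 with both lines in 1 fit and 0 to 1 on leaving out 1 library. Between the siRNAs it was 0 to 1 tubulin gene (TUBB2A) on leaving out 1 SW480 library. The test between lines called 0 of the 10 under each alternative run.

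Replicate numbers did not pair the libraries: same-numbered libraries correlated at -0.09 on average in SW480 (6 pairs, -0.41 to 0.57) and at -0.03 in HT29 (4 pairs, -0.13 to 0.03). Both siRNAs are numbered from 1, so this check does not cover pairs under another numbering. In SW480 the siPOLR1D3 libraries correlated at 0.36 to 0.53 with SCR replicates 4, 5 and 6, all on side 2. In HT29 they correlated at -0.06 to 0.06 with SCR replicates 3 and 4. A fit with the replicate block called 0 genes in SW480 and 735 in HT29, 3 of them tubulin genes (TUBB2A, 0.67; TUBB4B, 0.92; TUBA4A, 1.18). SCR libraries whose number no silenced library of the line carries do not enter the differences of that fit. HT29 SCR replicate 3, the highest control for these 3 genes, is among those left out in this way. The HT29 controls that remain are SCR replicates 1 and 2. SCR replicate 1 stood apart over all genes and was the lowest control for these 3. In that fit the sign turned in SW480 for TUBB2A (0.062), TUBB2B (0.18), TUBB6 (0.20), TUBA1B (-0.17), TUBA1C (-0.25) and TUBA4A (-0.089), and in HT29 for TUBB3 (-0.97).

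Other sign changes in SW480 were those of TUBB6 after upper quartile rescaling (0.0057) and within side 2 (0.045), TUBA1A with siPOLR1D2 alone (-0.12), TUBB2A (0.33), TUBB2B (0.32), TUBB6 (0.35), TUBA1B (-0.015) and TUBA1C (-0.065) with siPOLR1D3 alone, and TUBA1C (-0.090) and TUBA4A (-0.039) within side 1. On leaving out 1 library the values ran from -0.35 to 0.016 for TUBB2B, -0.16 to 0.086 for TUBB6, -0.047 to 0.14 for TUBA1B and -0.061 to 0.075 for TUBA1C, and in HT29 from -0.39 to 0.78 for TUBB3, which was -0.24 with siPOLR1D2 alone. The causes were not tested. Of 40 isotype shares, 24 moved by more than 1 SD with the longest transcript and 25 with no division by length.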
